A study of Mus musculus with 2 samples.

Results

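Predicted gene models are loci that carry a provisional name, Gm with a number, a RIKEN name ending in Rik, or a name of the Speer family, because no function has been assigned to most of them. The 135 members described here were chosen from 65956 rows of the deposited table. A member had 1 symbol of that kind, a signal above the background of at least 1 array, a log2 difference of 1 or more in either direction between the arrays, and a row outside the X and Y chromosomes. Of 8978 predicted model rows off those chromosomes, 3873 were above background, and 20 of these were 2-fold or more higher and 115 lower in MHC class II KO cells. That is 0.516% higher and 2.97% lower, or 3.49% either way, against 0.94% higher and 0.47% lower, or 1.41% either way, of the 9997 rows above background that are no predicted model. Over all rows with 1 symbol above background the shares were 0.822% higher and 1.17% lower, together 1.99%. The difference itself chose the members, so these shares and the differences below are a description and nothing was tested. Rows with identical values on both arrays cannot be told apart by these data, and counting each such set once left 66 value groups, 20 higher and 46 lower.

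The arrays came from Vγ6 γδ T cells, an innate-like T cell subset of the perinatal thymus, sorted by flow cytometry from thymi of 0-day-old C57BL/6 mice. The MHC class II KO group is labelled as a knockout of MHC class II, the molecules that show peptides to CD4 T cells, and the WT group was wild type. Each group was 1 array, so no value has a replicate check, an SD or a test. Neither the disrupted class II gene nor any pooling of animals is named in the labels. Signals are the deposited linear intensities, and differences are log2 MHC class II KO signal minus log2 WT signal. The background, the 95th percentile of 1228 olfactory receptor rows, was a signal of 58.2 in MHC class II KO cells and 61.3 in WT cells.

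The sort label was checked first. Tcrg-V6, the Vγ6 gene segment, had a signal of 5132 in MHC class II KO cells and 6373 in WT cells, and all 14 measured Vγ6 T cell markers were above background. Within that list the levels were not all alike, with differences of -2.88 for Il17f, -1.57 for Il17a and 1.46 for Ccr6, and 8 of the 14 above 0. The class II gene H2-Ab1 had 102 in MHC class II KO cells and 205 in WT cells, and the summed signal of the 5 class II genes above background was 957 in MHC class II KO cells and 1450.1 in WT cells. H2-Oa made most of both sums, with 601 in MHC class II KO cells and 914 in WT cells, and H2-DMa alone went the other way (0.17). H2-Ab1 and H2-Eb1, at 63.1 in MHC class II KO cells and 124 in WT cells, thus stayed above background in MHC class II KO cells. Where their probes lie relative to the disruption is not given, so the arrays do not settle the loss of class II. Markers of other cells moved in the same comparison as every member. Of 13 double positive and αβ thymocyte markers above background, 12 had differences above 0, with summed signals of 40997 in MHC class II KO cells and 19674 in WT cells. Cd8b1 made most of both sums, with 27602.5 in MHC class II KO cells and 10633.9 in WT cells, and Ccr9 alone went the other way (-1.29). Dntt had the largest computed difference of that list (2.51), with 225 in MHC class II KO cells and 39.7, not above background, in WT cells. Of all rows above background that are no predicted model, 63.3% had differences above 0. The 5 thymic epithelial markers above background summed to 343 in MHC class II KO cells and 1983 in WT cells. Of these sums Bpifa1, a secreted epithelial protein gene, gave 24.6 in MHC class II KO cells and 1614 in WT cells. Krt8 and Epcam, like Bpifa1 above background in WT cells alone, had 34.3 and 50.8 in MHC class II KO cells against 68.9 and 68.1 in WT cells. Ccl25 differed by -0.10, and Ly75 alone went the other way (0.33). Foxn1 and Aire were not above background. Xist differed by -0.56, and of the Y-linked genes Eif2s3y differed by 0.58, Uty by 0.62 and Kdm5d by 0.75. The part of these cells and of the sex mix in the members' differences was not tested, and in a bulk sample fewer cells of a type and less RNA per cell cannot be told apart.

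The members were unevenly placed in the genome, a property the rule did not use. A run of snoRNA models on chromosome 7, between Ube3a and Ipw, held 92 members, which is 80% of the lower members and 68.1% of all members. Counted as value groups, the run held 23 of the 46 lower groups and of the 66 groups in all. A run of Speer and related models on chromosome 5 held 8, all lower (88.9% of its 9 rows). The other 35 members lay on 17 chromosomes and were 20 higher and 15 lower. Outside the chromosome 7 run, 0.531% of 3767 predicted model rows above background were higher by 2-fold or more and 0.611% lower. The median difference of all predicted models above background was -0.05, that of the rows that are no predicted model 0.08, and that of all rows with 1 symbol 0.04. The limits of both runs were drawn after the values were seen.

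**Figure D1:**
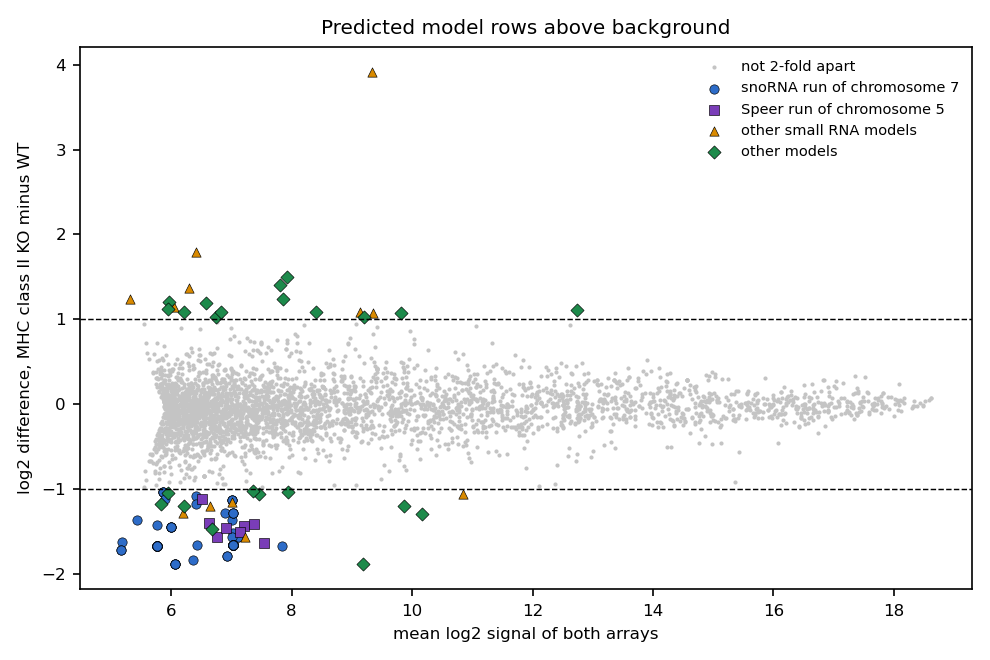
Log2 difference (MHC class II KO minus WT, y axis) against the mean log2 signal of both arrays (x axis) for the 3873 predicted model rows above background, with dashed lines at a difference of 1 and -1. The members of both runs lie below -1 at low signals, and Gm25147 stands alone near 4.

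Small nucleolar RNAs (snoRNAs) of the C/D box class guide ribose methylation of other RNAs. The chromosome region from Ube3a to Ndn is imprinted, and there a long transcript of the paternal chromosome, Snhg14, is processed into tandem snoRNA copies, mainly in neurons. The matching human region is that of the Prader-Willi and Angelman syndromes. RefSeq lists 136 genes between Ube3a and Ipw, of which 134 are snoRNAs and 129 are 79 bases long, with a median of 1871 bases between neighbouring starts. The gene table gives the members only Gm names and the type snoRNA, so no family name is given to them here.

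The array held 135 rows with 1 symbol from this run. All but 1 had a difference below 0, and the exception, Gm25499, differed by 0.15 and was below background on both arrays. The 135 rows made only 55 value groups, and 29 rows were below background on both arrays. Of all rows with 1 symbol above background, 57% had differences above 0. Those rows were brighter, with a median log2 WT signal of 8.49 against 7.01 for rows of the run above background. The sets are thus not alike. Of the 135 rows, 56 were above background in MHC class II KO cells and 106 in WT cells, and 92 of those 106 were members. The members' signals ran from 19.8 to 129 in MHC class II KO cells and from 63.9 to 410 in WT cells, with medians over value groups of 56.8 in MHC class II KO cells and 153 in WT cells. Their differences as computed ran from -1.89 to -1.03, with a median of -1.65 over rows and -1.52 over value groups, but 43 of the 92 were above background in WT cells alone and have only bounds. All member signals were thus low on a scale that reached 487523 in MHC class II KO cells and 480711 in WT cells.

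The 92 rows made only 23 value groups, and 79 of them shared their values with at least 1 other row. The largest group, 33 rows that include Gm22449, Gm24866 and Gm23560, had a signal of 73.2 in MHC class II KO cells and 230.2 in WT cells, a difference of -1.65. These 33 rows were spread along the run from place 25 to place 134. The next group, 23 rows that include Gm22050, Gm26283 and Gm25017, had 30.5 in MHC class II KO cells, which was not above background, and 96.7 in WT cells. It was therefore at least 1.66-fold lower, with a measured difference of -1.67, and 22 of its rows lay among the 45 nearest to Ipw. Both groups together held 56 of the 92 rows.

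Smaller groups had other values, and most were not above background in MHC class II KO cells, so that only a bound can be read from them. Gm23449, Gm23471, Gm25221 and Gm25988 had 34.9 in MHC class II KO cells and 129 in WT cells, which is at least 2.22-fold lower. Gm24799 had 43.5 in MHC class II KO cells and 155 in WT cells and was at least 2.66-fold lower, the highest bound of all members. Gm23305 and Gm25085 had 65.7 in MHC class II KO cells and 226 in WT cells, so both arrays measured them, with a difference of -1.78. The brightest of the run was Gm25870, the row next to Ipw, with 129 in MHC class II KO cells and 410 in WT cells and a difference of -1.67. At the dim end, Gm25647 and Gm25823 had 19.8 in MHC class II KO cells and 65.0 in WT cells, only at least 1.12-fold lower, and Gm25646 had 20.8 in MHC class II KO cells and 63.9 in WT cells, at least 1.10-fold lower.

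The remaining groups of 3 or more rows had differences nearer to the threshold. Gm23076, Gm24418, Gm24639 and Gm25077 had 38.6 in MHC class II KO cells and 105 in WT cells, at least 1.81-fold lower with a difference of -1.45. Gm22391, Gm24100 and Gm24137, all near the Ipw end, had 83.2 in MHC class II KO cells and 203 in WT cells, a difference of -1.28. Gm23310, Gm24862 and Gm25461 had 87.3 in MHC class II KO cells and 190 in WT cells, a difference of -1.12. Gm22996, Gm23922 and Gm24657, near the Ube3a end, had 40.9 in MHC class II KO cells and 83.7 in WT cells, at least 1.44-fold lower with a difference of -1.03. Some groups shared a difference but not a level. Gm26366 had 48.6 in MHC class II KO cells and 153 in WT cells, yet its difference agreed to 5 decimals with that of the 33 rows. Likewise Gm22255, with 75.1 in MHC class II KO cells and 222 in WT cells, shared its difference of -1.56 with Gm22632 and Gm24926, which had 80.0 in MHC class II KO cells and 236 in WT cells. Joining such groups left 21 distinct differences.

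**Figure D2:**
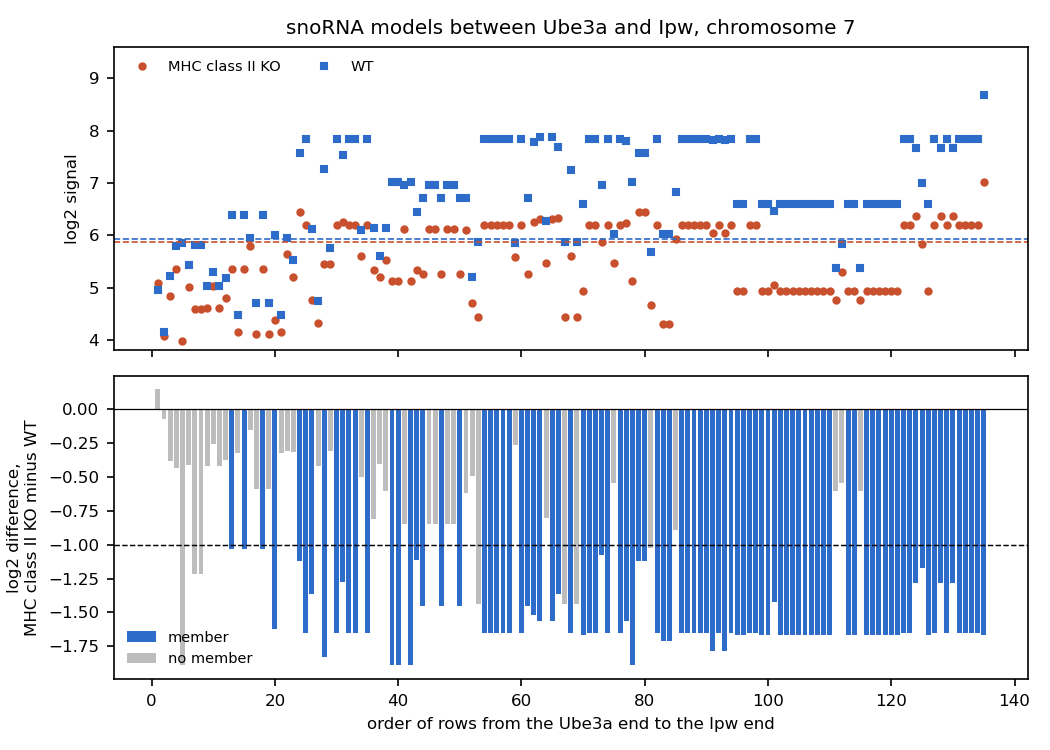
Top, log2 signal of the 135 rows between Ube3a and Ipw in their order along the chromosome (x axis), MHC class II KO as circles and WT as squares, with dashed lines at each array's background. Bottom, the log2 difference of each row, members in blue. Levels repeat in flat steps of identical rows, and the WT squares lie above the KO circles in all rows but the first.

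The number of rows above background differed along the run. Among the 45 rows nearest to Ube3a, 9 were above background in MHC class II KO cells and 25 in WT cells, and 18 were members. Among the middle 45 rows these counts were 29 in MHC class II KO cells and 39 in WT cells, with 32 members. Among the 45 rows nearest to Ipw they were 18 in MHC class II KO cells and 42 in WT cells, and all 42 were members. Over the rows above background on both arrays the median difference was -1.65 in each of the 3 stretches, the value of the 33 identical rows. The 14 rows above background that were no members differed by -0.89 to -0.15.

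Genes around the run did not show a 2-fold difference. Ube3a, an E3 ubiquitin ligase gene, had 664 in MHC class II KO cells and 707 in WT cells (difference -0.09). The row of Snhg14 had 43.9 in MHC class II KO cells and 54.9 in WT cells, not above background on either, and the imprinted genes Ndn, Magel2 and Mkrn3 were also below background. A second run of 36 snoRNA rows lies between Ipw and Snurf, where most genes are 94 bases long. Only 2 of these rows were above background, none was 2-fold apart, and their differences ran from -0.83 to 0.04 with a median of -0.23. Of 56 rows above background with a Snord or Snora name, Snora7a, Snord118 and Snord43, named after their values were seen, were at least 2-fold higher (5.36%) and none was lower (0%). The median difference of the 56 was 0.06.

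The Speer genes encode glutamate-rich proteins known from the mouse testis, where they are expressed in developing sperm cells. All 8 members of the chromosome 5 run were above background on both arrays and no 2 shared values. Whether rows of such similar genes share probes or signal was not tested, and their signals in MHC class II KO cells lay close to the background of 58.2. RefSeq lists 15 genes in the run, and 9 had a row with 1 symbol. Among the members, 6 are annotated as protein coding, and Speer8-ps1 and 4930572O03Rik as transcribed pseudogenes.

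The promoters of 6 members are shown through the 3 closest copies, because they let a reader see how alike these loci are. Between the 6 promoters, from 250 bases before to 50 after the start, identity ran from 71.9% to 98.7% over 15 pairs. The sequences are from RefSeq, build GRCm38.p6, and are those of Speer4e (chr5:14938426-14938725 on the minus strand), Speer4c (chr5:15714222-15714521 on the minus strand) and Gm17019 (chr5:15032958-15033257 on the minus strand). They read 5′ to 3′ along the gene, with capitals at the 9 positions where the 3 differ.
Speer4e: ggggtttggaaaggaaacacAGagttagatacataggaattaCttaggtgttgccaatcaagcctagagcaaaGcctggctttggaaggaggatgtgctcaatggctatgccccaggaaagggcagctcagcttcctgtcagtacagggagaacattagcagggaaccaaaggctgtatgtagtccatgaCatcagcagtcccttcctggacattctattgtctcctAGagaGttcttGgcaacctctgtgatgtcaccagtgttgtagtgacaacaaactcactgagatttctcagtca
Speer4c: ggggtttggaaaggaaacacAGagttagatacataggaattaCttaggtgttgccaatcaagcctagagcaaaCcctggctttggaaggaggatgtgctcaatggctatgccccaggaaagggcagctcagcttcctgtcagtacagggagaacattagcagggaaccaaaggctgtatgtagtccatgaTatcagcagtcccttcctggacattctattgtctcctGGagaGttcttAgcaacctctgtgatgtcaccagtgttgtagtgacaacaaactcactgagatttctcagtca
Gm17019: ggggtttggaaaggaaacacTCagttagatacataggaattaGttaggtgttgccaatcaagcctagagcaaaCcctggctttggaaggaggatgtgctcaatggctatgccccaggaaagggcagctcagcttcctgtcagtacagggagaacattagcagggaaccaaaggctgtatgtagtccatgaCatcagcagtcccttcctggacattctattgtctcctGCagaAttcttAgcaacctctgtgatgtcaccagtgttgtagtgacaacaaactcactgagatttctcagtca

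Rows of the genes with these 3 near-identical promoters had unequal signals, and whether their transcript levels differ was not tested. Speer4e had a signal of 62.3 in MHC class II KO cells and 135 in WT cells, a difference of -1.11 and the smallest of the run's members. Speer4c had 72.8 in MHC class II KO cells and 199 in WT cells (-1.45). Gm17019 had 84.3 in MHC class II KO cells and 239 in WT cells (-1.50). The row that was brightest on both arrays was Gm21083, with 106 in MHC class II KO cells and 327 in WT cells (-1.63).

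The other members of the run were spread over the same range. Gm9758 had 62.9 in MHC class II KO cells and 186 in WT cells (-1.56). Gm10354 had 61.0 in MHC class II KO cells and 161 in WT cells (-1.40). Speer8-ps1 had 89.9 and 4930572O03Rik had 102 in MHC class II KO cells, against 242 and 272 in WT cells (-1.43 and -1.41). Every signal of the 8 members in MHC class II KO cells, 61.0 to 106, was below every one in WT cells, 135 to 327, which the choice of members favours. Speer4d, which lies in the run but is no member, had 86.0 in MHC class II KO cells and 165 in WT cells (-0.94), and its promoter was 77.0% to 91.0% identical to those of the 6 members. Rows that name several of these genes also exist, and 3 of them lay in the run with differences of -1.76 to -1.47.

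Speer genes outside the run did not reach a 2-fold difference. The limits of the run were set by its outermost members, Gm9758 and Speer4c, so the choice of members favours this contrast. Of 8 Speer rows outside the run, Speer4b alone was above background, in WT cells only, with 56.1 in MHC class II KO cells and 79.6 in WT cells (-0.51). Its promoter was 96.0% identical to that of Gm10354 and 72.4% to that of Speer4e. The other 7 were below background, and all 8 differed by -0.51 to 0.03. Next to the run, Pclo, Sema3e and Cacna2d1 were not above background, and the predicted model Gm3510 had 105 in MHC class II KO cells and 109 in WT cells (-0.05). Of 20 germ cell genes, 4 were above background, none was 2-fold apart, and those 4 summed to 299.9 in MHC class II KO cells and 326 in WT cells. Those 4 were Zpbp (-0.32), Prm2 (-0.17), Tnp2 (-0.15) and, in the other direction, Prm1 (0.30). Ddx4 and Dazl, which define germ cells, were not above background.

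**Figure D3:**
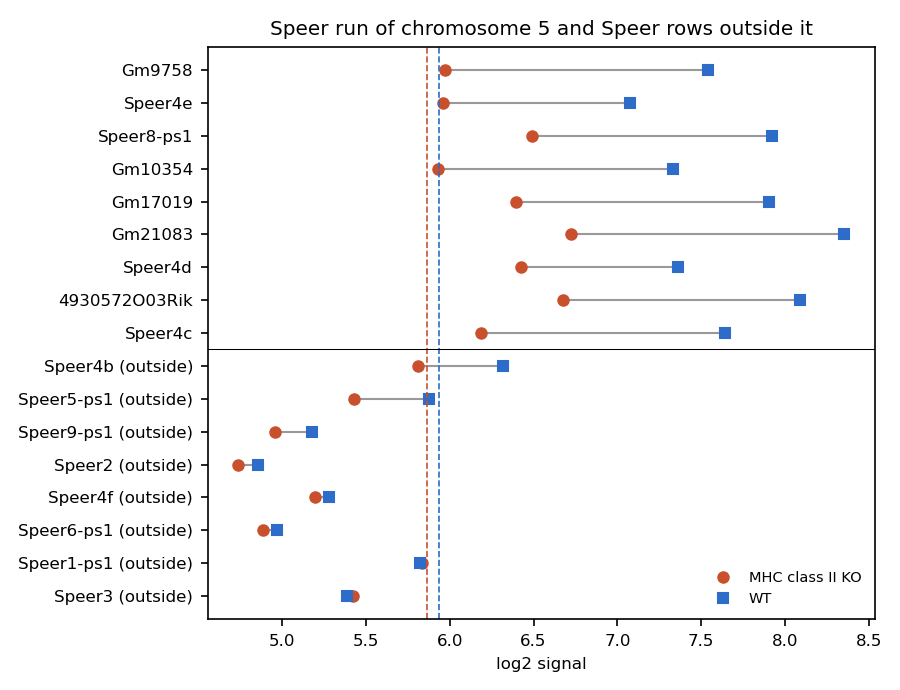
Log2 signal in MHC class II KO cells (circles) and WT cells (squares) for the 9 rows of the chromosome 5 run, in chromosome order above the line, and for 8 Speer rows outside it, with dashed lines at each background. Every circle of the run lies left of its square, while rows outside the run stay near or below background.

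Outside both runs, 12 members were small RNA models and 23 were other models. The small RNAs, 7 snRNAs and 5 snoRNAs, were 7 higher and 5 lower, which is 0.853% and 0.609% of 821 such rows above background. Small nuclear RNAs (snRNAs) form the core of the spliceosome, and the models here are unassigned copies. The other models were 13 higher and 10 lower, 0.443% and 0.34% of 2937 rows.

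Gm25147, an snRNA model of 105 bases on chromosome 2 inside Mllt10, differed most of all members. It had a signal of 2522 in MHC class II KO cells and 167 in WT cells, a log2 difference of 3.92. Mllt10, a chromatin factor gene, had 745 in MHC class II KO cells and 733 in WT cells (0.02). Among the snoRNA models, Gm24494, next to Snord45b, had 159 in MHC class II KO cells and 45.7 in WT cells, which was not above background, so it was at least 2.59-fold higher. Snord45b itself differed by -0.12. Gm22334, inside Trpc4ap, had 126 in MHC class II KO cells and 48.7 in WT cells and was at least 2.05-fold higher, while Trpc4ap differed by 0.29.

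Other small RNA members were less far apart or near background. Gm26132, inside St3gal2, had 818 in MHC class II KO cells and 385 in WT cells (1.09), and Gm25635, inside Stxbp5, had 947 in MHC class II KO cells and 451 in WT cells (1.07). Gm24499 had 98.2 in MHC class II KO cells and 44.5 in WT cells, at least 1.60-fold higher. Gm23581 had 60.8 in MHC class II KO cells and 25.9 in WT cells, and no fold is given because its higher signal did not exceed the WT background. On the lower side, Gm24796 had 86.9 in MHC class II KO cells and 257 in WT cells (-1.56), Gm24965 had 65.8 in MHC class II KO cells and 151 in WT cells (-1.20), and Gm26064, inside Ranbp9, had 86.7 in MHC class II KO cells and 193 in WT cells (-1.15). Gm23138, inside the uridylyltransferase gene Tut4, was bright, with 1282 in MHC class II KO cells and 2659 in WT cells (-1.05), while Tut4 differed by -0.36. Gm22205 had 47.0 in MHC class II KO cells and 114 in WT cells, at least 1.96-fold lower. It lies between AF357428 and Mir758 in the imprinted region of chromosome 12, another locus of tandem snoRNAs and miRNAs, and those neighbours differed by 0.40 and 0.16.

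The next 3 higher protein coding members were put side by side after their values were seen, and nothing is read from the grouping. Gm12250, an immunity-related GTPase that RefSeq also lists as Irgb10 and that interferon gamma induces in mouse cells, had 364 in MHC class II KO cells and 138 in WT cells (1.403). Its neighbour Igtp, a GTPase gene of the same family, had 8615 in MHC class II KO cells and 5333 in WT cells (0.69). Gm1966, next to the interferon-inducible GTPase gene Gvin1, had 153 in MHC class II KO cells and 74.7 in WT cells (1.03), and Gvin1 had 927 in MHC class II KO cells and 541 in WT cells (0.78). Gm11127, for which RefSeq lists H2-K1 as a synonym, had 108 in MHC class II KO cells and 51.1 in WT cells, at least 1.76-fold higher. It lies in the MHC between H2-T24, which differed by 0.71, and H2-Bl, which differed by 0.45.

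The promoters of these 3 members are shown because each holds a match to the interferon-stimulated response element, the site of interferon-activated transcription factors. It was searched on both strands as GAAA, any 2 bases and GAAA again. It was found in 1131 of 32851 RefSeq promoters of the same length (3.44%) and in 3 of 17 member genes with a promoter. Of those 17 promoters, 6 are the similar ones of the chromosome 5 run, and the match in Gm1966 lies in a stretch of T and C alone. Nothing is therefore read from these shares. The gamma-activated site, searched as TTCNNNGAA, was in 8.3% of all promoters and in that of Gm12250, without overlap with the other matches. The search was made with the members' values known, and a match is only a match of letters. The sequences are from build GRCm38.p6 at chr11:58183593-58183892 on the plus strand, chr7:106644596-106644895 on the minus strand and chr17:36058322-36058621 on the minus strand, with capitals at the response element matches (on the reverse strand where they begin with TTTC).
Gm12250: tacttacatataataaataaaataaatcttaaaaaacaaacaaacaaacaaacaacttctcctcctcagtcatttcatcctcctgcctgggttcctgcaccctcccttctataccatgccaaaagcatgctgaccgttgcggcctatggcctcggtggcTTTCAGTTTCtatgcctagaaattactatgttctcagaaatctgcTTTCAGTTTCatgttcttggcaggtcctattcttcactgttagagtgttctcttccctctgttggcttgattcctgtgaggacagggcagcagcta
Gm1966: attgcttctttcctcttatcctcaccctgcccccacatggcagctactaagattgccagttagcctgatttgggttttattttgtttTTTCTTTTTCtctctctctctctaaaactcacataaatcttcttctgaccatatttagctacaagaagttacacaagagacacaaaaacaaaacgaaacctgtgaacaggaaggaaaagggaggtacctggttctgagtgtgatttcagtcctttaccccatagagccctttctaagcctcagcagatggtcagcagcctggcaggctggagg
Gm11127: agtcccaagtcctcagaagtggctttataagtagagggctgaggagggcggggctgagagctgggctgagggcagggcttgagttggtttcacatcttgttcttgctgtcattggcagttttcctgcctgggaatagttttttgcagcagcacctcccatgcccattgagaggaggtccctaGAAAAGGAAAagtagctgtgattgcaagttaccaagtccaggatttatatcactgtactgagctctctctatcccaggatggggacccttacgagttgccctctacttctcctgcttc

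In Gm12250 the 2 response element matches begin at -91 and -46 relative to the start, in Gm1966 at -163 and in Gm11127 at -68. Igtp, next to Gm12250, also holds a match to both motifs. The lncRNA Gm20559 had 497 in MHC class II KO cells and 233 in WT cells (1.09). It lies next to Samd9l, an interferon-induced gene, which had 774 in MHC class II KO cells and 364 in WT cells (1.09). The pseudogene Gm7856, between the interferon receptor genes Ifnar1 and Ifngr2, had 144 in MHC class II KO cells and 63.2 in WT cells (1.19), while those genes differed by 0.20 and -0.50.

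The remaining higher members were of several types. 1700016G14Rik, which RefSeq now names Armh2, had 405 in MHC class II KO cells and 144 in WT cells (1.497), and its neighbour Ripor2 had 1516 in MHC class II KO cells and 931 in WT cells (0.70). Gm525, a protein coding model, had 357 in MHC class II KO cells and 151 in WT cells (1.24). The pseudogene Gm12957 was the brightest member, with 10060 in MHC class II KO cells and 4666 in WT cells (1.11). The transcribed pseudogene Gm5424 had 1303 in MHC class II KO cells and 617 in WT cells (1.08). Gm24208, an lncRNA near Mycn, had 166 in MHC class II KO cells and 78.01 in WT cells (1.09). The lncRNA 4930405J17Rik, with 90.4 in MHC class II KO cells and 41.7 in WT cells, and the pseudogene Gm23230, with 94.3 in MHC class II KO cells and 40.9 in WT cells, passed background only in MHC class II KO cells and were at least 1.47-fold and 1.54-fold higher.

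Among the lower members outside the runs, the lncRNA 1700048O20Rik differed most, with 304 in MHC class II KO cells and 1123 in WT cells (-1.88). The flanking genes Cyp8b1 and Pomgnt2 differed by 0.18 and 0.05. The pseudogenes Gm3470 and Gm11451 were also bright, with 735 and 616 in MHC class II KO cells against 1802 and 1412 in WT cells (-1.29 and -1.20). Gm26018 had 61.3 in MHC class II KO cells and 170 in WT cells (-1.47). The protein coding model 1110032A03Rik had 121 in MHC class II KO cells and 253 in WT cells (-1.06). The pseudogenes Gm26013 and Gm15937 and the transcript 1700054O19Rik were above background in WT cells alone, at least 1.93-fold, 1.46-fold and 1.52-fold lower.

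**Figure D4:**
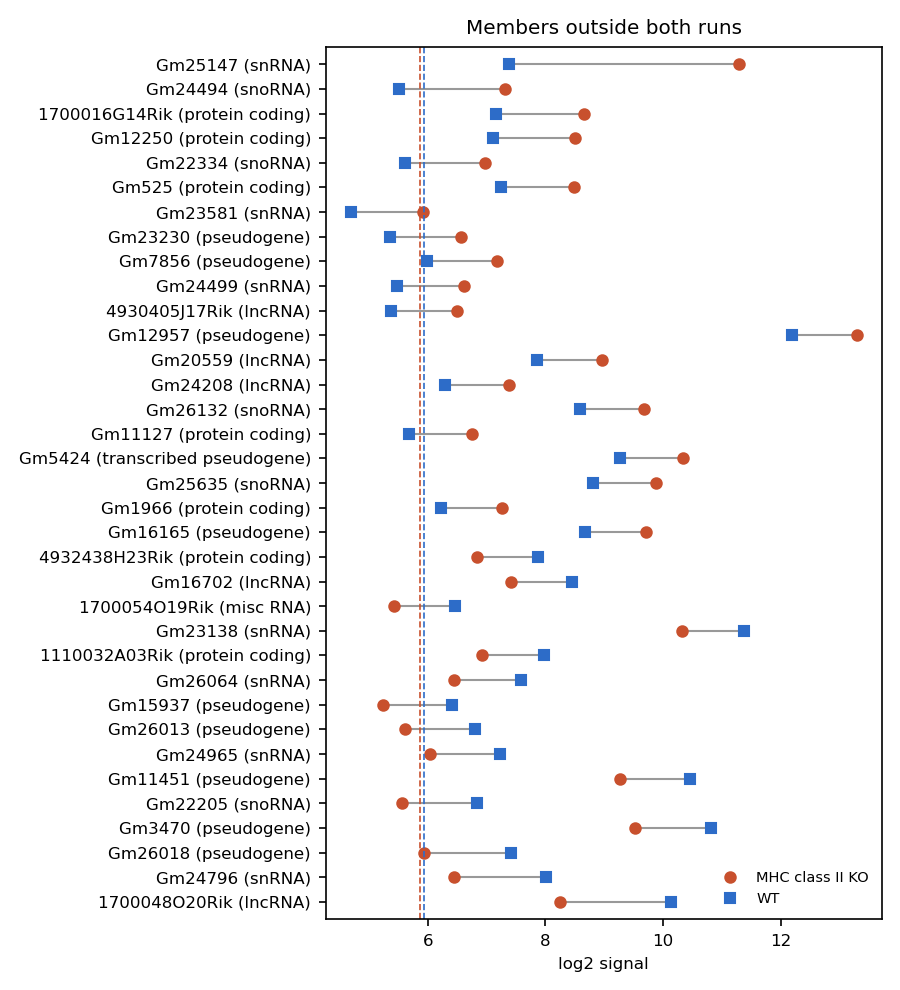
Log2 signal in MHC class II KO cells (circles) and WT cells (squares) of the 35 members outside both runs, ordered by difference, with the RefSeq type in brackets and dashed lines at each array's background. The 20 higher members are above and the 15 lower ones below, and 11 of the 35 were above background for 1 genotype alone.

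Neighbouring named genes were mostly less than 2-fold apart, as were most rows above background. Of 69 flanking genes, the nearest on each side that were above background, 39 had the sign of the member and 1, Samd9l, was at least 2-fold apart. The median difference was 0.10 for the 39 genes that flank higher members and -0.0054 for the 30 that flank lower ones. Of 11 named genes that overlap a member none was 2-fold apart, and they differed by -0.36 to 0.62. Of all rows above background that are no predicted model, 1.41% were 2-fold apart either way and 63.3% had differences above 0. The counts of neighbours 2-fold apart are near that share, so nothing is read from them.

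**Figure D5:**
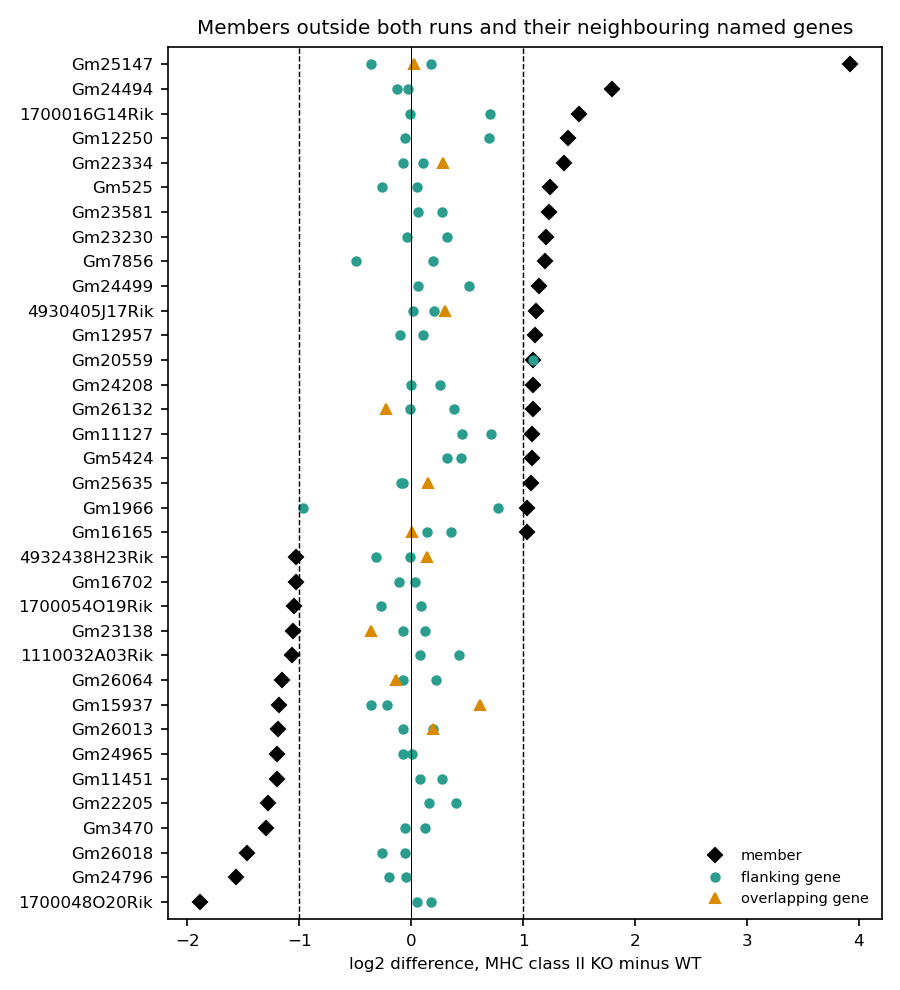
Log2 difference (MHC class II KO minus WT, x axis) of each of the 35 members (diamonds) and of its flanking (circles) and overlapping (triangles) named genes above background. All neighbours but Samd9l, beside Gm20559, lie inside the dashed lines at -1 and 1.

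The members form a band that continues past the threshold. On the higher side the nearest members were Gm16165 with 838 in MHC class II KO cells and 410 in WT cells (1.03), Gm1966 and Gm25635. The nearest predicted models outside were Gm25410 (0.97), Gm12856 (0.95) and C130023O10Rik (0.95). On the lower side the nearest members were 4932438H23Rik with 115 in MHC class II KO cells and 234 in WT cells, Gm16702 with 171 in MHC class II KO cells and 350 in WT cells, and Gm22996, each at -1.03. The nearest outside were Gm11342 (-0.99), Gm23817 (-0.98) and Gm26335 (-0.97).

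Depth of signal limits many members. On both arrays 81 members were above background, 47 in WT cells alone and 7 in MHC class II KO cells alone. Of these last 54, 9 were bounded at 2-fold or more. Genes of chromatin silencing and of RNA surveillance were compared by list, and any link of them to the members was not tested. Of all rows above background that are no predicted model, 63.3% had differences above 0 and the median was 0.08. Of 19 genes of chromatin silencing above background, 17 had differences above 0, none was 2-fold apart and the median was 0.18, with the highest at Morc3 (909.5 in MHC class II KO cells and 593 in WT cells, 0.62). Of 11 genes of RNA surveillance and decay, which degrade unstable transcripts, 10 had differences above 0, none was 2-fold apart and the median was 0.13. Upf1, a helicase of RNA decay, was highest with 646 in MHC class II KO cells and 480 in WT cells (0.43).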

How the data were processed

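Biotin-labelled RNA of sorted cells was hybridised to whole-transcript GeneChip arrays, 1 for MHC class II KO and 1 for WT. RMA, a background correction and probe summary, and Affymetrix Expression Console 1.4.1 are named per the submitters' processing notes, while the sources used here give neither their settings nor the genome build of the rows. The table as deposited holds a linear intensity for each row. The highest intensities pass the ceiling of a scanner, and the step that did this, not described in the sources used here, could have changed every fold.

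From the deposited intensities, log2 differences were taken over all rows. Symbols came from the platform annotation, where 30604 rows had 1 symbol, and types, names and gene order came from the RefSeq table of assembly GRCm38.p6, which matched all 135 members. Where only 1 array passed background, a member has a bound, its signal over the other array's background, and no fold is given where that is under 1. Promoters were compared by global alignment with Biopython 1.88. Grouping and counting were tested on simulated data. With 1 array per group no test was possible, and the number of arrays limits the precision.

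The members and lists were chosen with earlier results of these data known. The genes named are value groups of 3 or more rows, the 12 highest and 12 lowest groups and all Speer members. The 3 rows on each side of the thresholds and some list genes, not always those with the largest differences, are named too. The other members outside the runs were named after their values were seen. The Vγ6, double positive, class II, epithelial, germ cell, silencing and RNA surveillance lists are reported beside the members, and the B cell and myeloid list had 4 of 13 genes above background and a median of -0.11. Alternatives covered scaling, the background, the fold threshold and the grouping of rows.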

Additional observations from a re-analysis of the deposited data

How the results depend on the processing

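The direction of the 24 member groups with the largest differences and their 2-fold distance held under centring, quantile normalization and a loess correction. Of 135 members, 135, 130 and 130 stayed 2-fold apart under these scalings, and 90 with values under background raised to it, among them 56 of the chromosome 7 run and all 8 of the chromosome 5 run. The 115 lower rows became 75 with values under background raised to it, 73 with the background at the 99th percentile and 68 when both arrays had to be above background, where the 20 higher rows became 13. Requiring both arrays also left 13 higher and 30 lower value groups. At 1.5-fold there were 88 higher and 244 lower rows, in 87 and 171 value groups, and at 3-fold 2 higher and 70 lower rows, in 2 and 11 value groups. These counts move by the construction of the thresholds. Without the rows between Ube3a and Ipw, an alternative chosen after seeing the data, 23 lower rows in 23 value groups remained, so the excess of lower over higher members rests on that run. The median difference of all predicted models above background lay between -0.060 and -0.036 under all alternatives run. No paired analysis was possible because each genotype has 1 array and the labels give no replicate numbers.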

Other observations

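Predicted models of the X and Y chromosomes, which the choice of members left out, were 516 rows above background, of which 3 were 2-fold or more higher and 4 lower in MHC class II KO cells. Gm21887 had a signal of 559 in MHC class II KO cells and 106 in WT cells, a difference of 2.41. Gm2411 and Gm21763 passed background only in MHC class II KO cells, with 85.6 and 85.3 there against 28.6 and 41.1 in WT cells. Gm22287 and Gm26437 passed background only in WT cells, with 31.2 and 19.9 in MHC class II KO cells against 131 and 82.2 in WT cells. Gm2892 had 35.5 in MHC class II KO cells and 79.9 in WT cells, and Gm25793 had 81.2 in MHC class II KO cells and 172 in WT cells.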
